A study of Mus musculus with 8 samples.

Results

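The genes of the EGFR family were followed across 4 mouse models of endometrial cancer, named TPM, TPK, TPMCa and TPMR1. The set was given by gene symbol, though it was chosen with earlier results of these data known. It held 3 receptors, Egfr, Erbb2 and Erbb3, and 7 ligands, Egf, Tgfa, Areg, Ereg, Btc, Hbegf and Epgn, that is 10 of the 24419 genes of the count table. All 10 passed the filter on low counts.

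Bulk polyA RNA was sequenced from 2 libraries per model. Each model began as organoids from the uterus of CAG-Cas9-EGFP mice, in which Cas9 and EGFP are driven by the ubiquitous CAG promoter. In TPM the edits include overexpressed Myc and an sgRNA targeting Trp53. TPMCa carried these edits and in addition Pik3ca E545K cDNA, TPMR1 these edits and an sgRNA against Pik3r1, and the edits of TPK include an sgRNA against Trp53 but no introduced Myc. The added cDNAs came from MSCV retroviruses and the sgRNAs from a lentivirus. Edited organoids were injected into the uterus of female BALB/cA-nu nude mice, bought at 8 weeks of age, which lack mature T cells but keep their own stroma, vessels and innate immune cells. The labels call the samples tumor organoids, whereas by the methods of the study RNA came from tumors of mice killed some 2 months after the injection. The organoid medium of all models held human EGF, which is a protein supplement and adds no mouse Egf transcript.

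EGFR and its relatives are receptor tyrosine kinases that pair at the cell surface once a ligand is bound. EGFR binds EGF, TGF-alpha, amphiregulin, epiregulin, betacellulin, HB-EGF and epigen, ERBB2 has no known ligand of its own and serves as the preferred partner of the others, and ERBB3 binds neuregulins and has little kinase activity. The ligands are made as membrane-anchored precursors that metalloproteases cut free, and the active receptors feed the PI3K and MAPK pathways, both of which are often altered in endometrial cancer.

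The 8 libraries held between 15748396 and 26943611 counts. A floor of 3 counts corresponded to between 0.116 and 0.198 CPM (read counts scaled to a common library size), which covers counting error only. Epithelial markers differed widely among the models. The summed level of 6 simple epithelium markers (Epcam, Cdh1, Krt7, Krt8, Krt18 and Krt19) was between 2940.6 and 5497.6 CPM in TPM and TPK, between 23.7 and 73.3 CPM in TPMCa, and between 6.47 and 27.4 CPM in TPMR1. The epithelial markers were thus nearly absent from the libraries of TPMCa and TPMR1, although the labels describe all models as endometrial cancer. From stained tumor sections, the study reports glandular structures in TPMCa and TPMR1, with no staining for the squamous marker p63. In bulk samples, fewer cells of a type and less RNA per cell cannot be told apart.

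Sequences around the start sites are shown for 5 members, chosen to set 3 genes that differed between models, Erbb2, Tgfa and Btc, beside Egfr, which is discussed for its smaller difference, and Areg, whose promoter held the most motif matches. They were taken from RefSeq on GRCm38.p6, from 250 bases before to 50 bases after the start, on the strand of the gene. Of the 10 members, 7 were matched to an entry. Erbb3 and Ereg were not, and Hbegf was not looked up. Capitals mark matches to the motifs searched on both strands, which were AP-1 (TGANTCA), CRE (TGACGTCA), TATA box (TATAAA), E box (CACGTG), GC box (GGGCGG), Grainyhead site (AACCGGTT) and ETS site (CCGGAAG). No match shared a base with another.
Egfr, chr11:16751953-16752252, plus strand: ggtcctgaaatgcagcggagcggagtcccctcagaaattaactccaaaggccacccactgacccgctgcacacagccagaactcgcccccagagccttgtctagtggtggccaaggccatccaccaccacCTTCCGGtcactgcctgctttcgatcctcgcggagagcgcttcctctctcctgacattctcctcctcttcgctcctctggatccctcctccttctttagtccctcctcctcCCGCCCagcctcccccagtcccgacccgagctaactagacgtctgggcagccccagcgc
Erbb2, chr11:98412234-98412533, plus strand: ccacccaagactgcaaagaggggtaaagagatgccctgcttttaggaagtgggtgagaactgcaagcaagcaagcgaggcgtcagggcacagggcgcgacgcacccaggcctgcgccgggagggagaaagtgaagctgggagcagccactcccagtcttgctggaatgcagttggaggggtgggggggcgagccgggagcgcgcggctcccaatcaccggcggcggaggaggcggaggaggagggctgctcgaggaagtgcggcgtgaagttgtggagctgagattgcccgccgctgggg
Tgfa, chr6:86194972-86195271, plus strand: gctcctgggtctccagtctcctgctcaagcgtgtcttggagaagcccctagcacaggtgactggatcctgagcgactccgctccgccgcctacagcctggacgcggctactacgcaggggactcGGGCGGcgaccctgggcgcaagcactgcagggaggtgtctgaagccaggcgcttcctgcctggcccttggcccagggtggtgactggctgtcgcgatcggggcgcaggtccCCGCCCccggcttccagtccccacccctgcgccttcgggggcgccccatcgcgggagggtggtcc
Btc, chr5:91402945-91403244, minus strand: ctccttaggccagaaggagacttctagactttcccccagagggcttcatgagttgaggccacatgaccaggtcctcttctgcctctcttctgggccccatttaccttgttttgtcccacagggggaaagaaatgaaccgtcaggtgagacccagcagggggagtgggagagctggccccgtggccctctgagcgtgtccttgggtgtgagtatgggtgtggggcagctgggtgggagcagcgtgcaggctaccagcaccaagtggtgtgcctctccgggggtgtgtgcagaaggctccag
Areg, chr5:91139349-91139648, plus strand: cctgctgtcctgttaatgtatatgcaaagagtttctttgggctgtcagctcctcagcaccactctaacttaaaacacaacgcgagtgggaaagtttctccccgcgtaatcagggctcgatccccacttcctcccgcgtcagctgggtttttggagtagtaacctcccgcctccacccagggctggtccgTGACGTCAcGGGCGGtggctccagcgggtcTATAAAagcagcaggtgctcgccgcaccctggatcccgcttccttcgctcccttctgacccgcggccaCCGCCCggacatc

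The Areg window held a CRE, which binds CREB and ATF factors, 61 bases before the start, a TATA box 31 bases before it, and 2 GC boxes. Of the 32851 mouse promoter windows of this length, 1.79% held a CRE, 13.6% a TATA box and 35.7% a GC box. The Egfr window held a GC box 9 bases and an ETS site 120 bases before the start, and the Tgfa window held 2 GC boxes. An ETS site was in 8.86% of all windows. The Erbb2 and Btc windows held none of the 7 motifs, which says only that these letters were not there. An AP-1 match was in 7.81%, an E box in 7.15% and a Grainyhead site in 0.146% of all windows, and in none of the 5 shown. The GC content was 62.3% for Egfr, 66% for Erbb2, 70.7% for Tgfa, 60.3% for Btc and 59.3% for Areg, against a median of 52.7% over all windows.

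The first question was how the family differed between the models with and without the Pik3ca or Pik3r1 alteration. TPM and TPK were each compared with the mean of TPMCa and TPMR1 in a quasi-likelihood fit of edgeR across 15875 genes and all 8 libraries, with p-values adjusted by the Benjamini-Hochberg method. The libraries of TPMCa and TPMR1 served in both comparisons, so the results of the pair are not independent. TPK also lacked the introduced Myc that TPMCa and TPMR1 carried. In its comparison, Myc, any other edit that differs and the Pik3ca or Pik3r1 alteration cannot be told apart. Erbb2, Erbb3, Tgfa and Btc were higher in TPM and in TPK, by 19.6-fold to 64.9-fold. Of the 10 members, 4 were higher and 0 lower in TPM at an adjusted p under 0.05, where 7.44% of all tested genes were higher and 1.45% lower. In TPK, the same 4 members were higher and 0 lower, where 10.3% of all tested genes were higher and 4.06% lower. The median log2 fold change over the 10 members was 2.34 in TPM and 2.57 in TPK, beside -0.02 and -0.002 over all tested genes.

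The study called genes in these comparisons at a log2 fold change of more than 1 in size together with a p below 0.05 before adjustment. At that threshold 6 members were higher and 0 lower in TPM, with Egfr and Epgn added, where 13.5% of all tested genes were higher and 6.54% lower. In TPK 5 members were higher and 0 lower, with Epgn added, where 15.5% of all tested genes were higher and 9.71% lower.

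**Figure D1:**
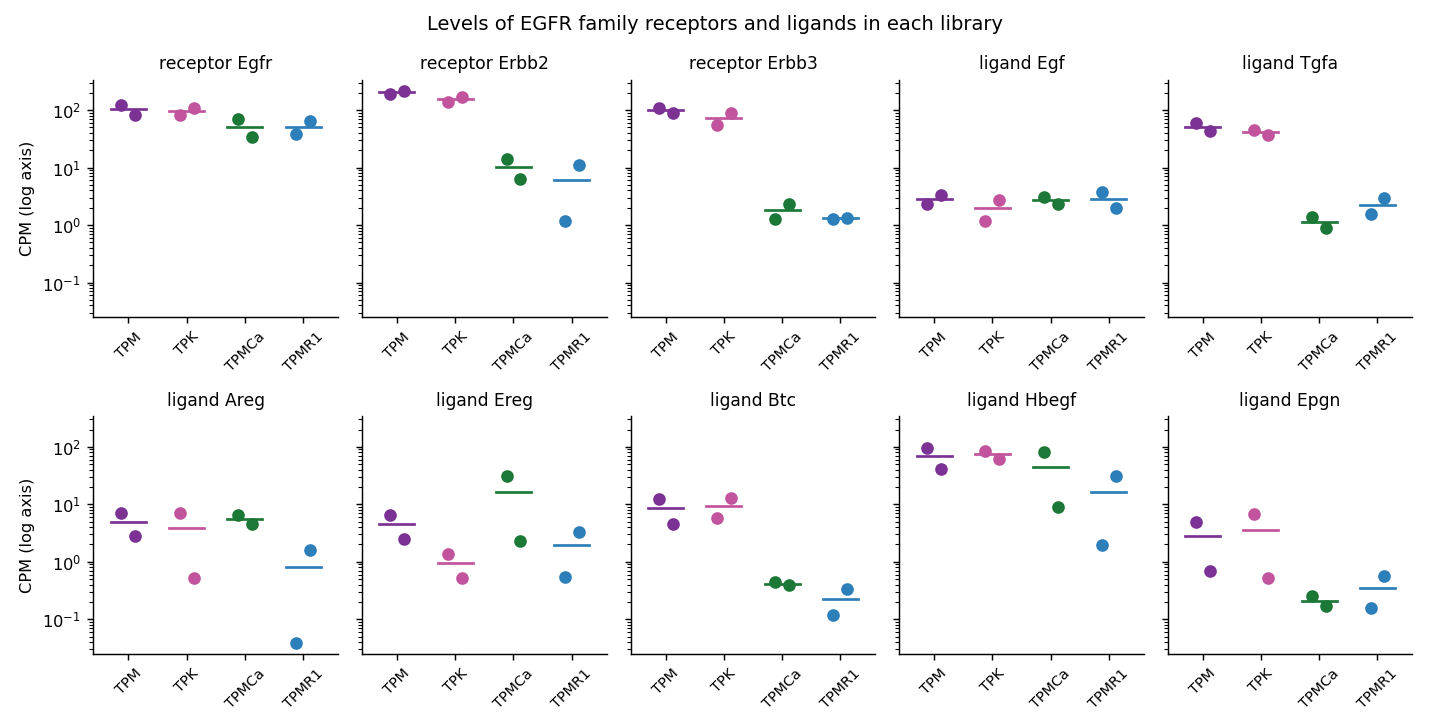
Level of each of the 10 members in each library, in CPM on a log axis, with 2 points per model and a bar at their mean. Egfr, Erbb2, Erbb3, Tgfa and Btc were higher in every TPM and TPK library than in any TPMCa or TPMR1 library. For Egfr the lowest of the former was 82.5 CPM and the highest of the latter 69.5 CPM. The share of all tested genes that separated in this way was not counted. Egf stayed between 1.20 and 3.83 CPM in all 8.

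Erbb2 encodes the partner receptor without a ligand and lies at chr11:98412470-98437716. Its level was 194 and 219 CPM in the TPM libraries, 141 and 166 CPM in TPK, 14.1 and 6.34 CPM in TPMCa, and 1.20 and 10.9 CPM in TPMR1. The TPM and TPK libraries lay far above the others, and TPMR1 replicate 1 was the lowest. Relative to the mean of TPMCa and TPMR1, the log2 fold change was 4.72 ± 0.75 (SE) in TPM, with an adjusted p of 0.0133 in edgeR's quasi-likelihood test. It was 4.29 ± 0.74 in TPK, with an adjusted p of 0.0143 in the same test. The call was lost in TPM without TPM replicate 1, TPM replicate 2, TPMCa replicate 1 or TPMCa replicate 2, with edgeR adjusted p-values of 0.0613, 0.0551, 0.0594 and 0.0651. It was lost in TPK without TPK replicate 1, TPK replicate 2, TPMCa replicate 1 or TPMCa replicate 2, with edgeR adjusted p-values of 0.0582, 0.0839, 0.0539 and 0.0575. The log2 fold change stayed between 4.06 and 5.06 in these 8 fits.

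Erbb3 encodes the neuregulin receptor that recruits PI3K through its phosphorylated tail, and lies at chr10:128567523-128589652. The Erbb3 level was 110 and 90.6 CPM in TPM, 54.4 and 89.6 CPM in TPK, 1.27 and 2.34 CPM in TPMCa, and 1.28 and 1.33 CPM in TPMR1. All 4 libraries of TPMCa and TPMR1 lay far below those of TPM and TPK. Against the mean of TPMCa and TPMR1, the log2 fold change was 6.02 ± 0.35 in TPM (edgeR adjusted p = 0.000657) and 5.54 ± 0.34 in TPK (edgeR adjusted p = 0.000815). These were the largest differences among the 10 members, and both were called in all 15 alternative fits.

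Egfr, the receptor of the 7 ligands followed here, lies at chr11:16752203-16918158 and differed less. The Egfr level was 124 and 83.0 CPM in TPM, 82.5 and 109 CPM in TPK, 69.5 and 33.5 CPM in TPMCa, and 38.9 and 63.4 CPM in TPMR1. Every TPM and TPK library lay above every TPMCa and TPMR1 library, with 82.5 CPM as the lowest of the former and 69.5 CPM as the highest of the latter. For how many tested genes this held was not counted. Egfr had a log2 fold change of 1.01 ± 0.37 in TPM (edgeR adjusted p = 0.155) and 0.90 ± 0.37 in TPK (edgeR adjusted p = 0.152). Neither passed the adjusted threshold in any of the 15 alternatives.

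Among the ligands, Tgfa and Btc differed between the models. TGF-alpha is a ligand that epithelial cells make to act on themselves, and its gene lies at chr6:86195223-86275719. The level of Tgfa was 60.6 and 43.1 CPM in TPM, 45.6 and 37.5 CPM in TPK, 1.39 and 0.890 CPM in TPMCa, and 1.55 and 3.0 CPM in TPMR1. The lowest of the TPM and TPK libraries, at 37.5 CPM, lay far above the highest of the others, at 3.0 CPM. Tgfa had a log2 fold change of 5.01 ± 0.39 in TPM (edgeR adjusted p = 0.00119) and 4.69 ± 0.38 in TPK (edgeR adjusted p = 0.0012), and both were called in all 15 alternatives.

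Btc encodes betacellulin, which activates EGFR and ERBB4. The Btc level was 12.3 and 4.58 CPM in TPM, 5.77 and 12.9 CPM in TPK, 0.443 and 0.390 CPM in TPMCa, and 0.116 and 0.333 CPM in TPMR1. The TPMCa and TPMR1 libraries held between 3 and 7 counts each, at or just above the floor. Btc had a log2 fold change of 4.78 ± 0.69 in TPM (edgeR adjusted p = 0.00945) and 4.92 ± 0.69 in TPK (edgeR adjusted p = 0.00731). The call in TPM was lost without TPM replicate 1, TPMCa replicate 1 or TPMCa replicate 2, with edgeR adjusted p-values of 0.078, 0.0542 and 0.0508, and that in TPK without TPK replicate 2, with an edgeR adjusted p of 0.0586.

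Btc lies in a cluster of ligand genes with Epgn, Ereg and Areg. The stretch chr5:91027464-91402994 of GRCm38, 375.5 kb long, held these 4 as its only protein-coding genes in GENCODE M21. No single pattern was shared by all 4 genes of the cluster. Over the 8 libraries, Pearson's r of log2 CPM was 0.72 for Btc and Epgn and 0.688 for Areg and Ereg. The other pairs in the cluster ranged from -0.136 for Btc and Ereg to 0.519 for Areg and Epgn.

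Epgn encodes epigen, a low-affinity EGFR ligand, and was low throughout. The Epgn level was 4.88 and 0.686 CPM in TPM, 6.69 and 0.527 CPM in TPK, 0.253 and 0.167 CPM in TPMCa, and 0.155 and 0.556 CPM in TPMR1. Replicate 1 was far above replicate 2 in TPM and TPK, and TPK replicate 2 lay below TPMR1 replicate 2. Epgn had a log2 fold change of 3.33 ± 1.19 in TPM (edgeR adjusted p = 0.146) and 3.71 ± 1.19 in TPK (edgeR adjusted p = 0.0845). DESeq2 gave adjusted p-values of 0.0459 and 0.0175, the only ones under 0.05 among the 15 alternatives of each comparison.

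Areg encodes amphiregulin, a low-affinity EGFR ligand known for roles in glandular epithelia and wound repair. The Areg level was 7.04 and 2.86 CPM in TPM, 7.09 and 0.527 CPM in TPK, 6.46 and 4.56 CPM in TPMCa, and 0.0387 and 1.61 CPM in TPMR1. The value of TPMR1 replicate 1 was 1 count, under the floor, and TPK replicate 2 held 8 counts. The replicates differed by up to 41.6 times within a model, more than the models did. Areg had a log2 fold change of 1.22 ± 1.29 in TPM (edgeR adjusted p = 0.596) and 0.85 ± 1.30 in TPK (edgeR adjusted p = 0.694), and without TPK replicate 1 the latter turned to -2.01.

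Ereg encodes epiregulin, which activates EGFR and ERBB4. The Ereg level was 6.50 and 2.52 CPM in TPM, 1.37 and 0.527 CPM in TPK, 30.9 and 2.34 CPM in TPMCa, and 0.542 and 3.33 CPM in TPMR1. TPMCa replicate 1 stood above all other libraries, and its partner replicate lay among them. Ereg had a log2 fold change of -0.33 ± 1.16 in TPM (edgeR adjusted p = 0.891) and -2.56 ± 1.32 in TPK (edgeR adjusted p = 0.232). The difference in TPM turned to 1.09 without TPMCa replicate 1, to 0.58 without TPMR1 replicate 2 and to 0.20 without TPM replicate 2.

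Hbegf encodes HB-EGF, a heparin-binding ligand of EGFR and ERBB4 that is also made by immune and vascular cells. The Hbegf level was 95.5 and 41.7 CPM in TPM, 85.3 and 61.8 CPM in TPK, 80.7 and 9.13 CPM in TPMCa, and 1.97 and 30.9 CPM in TPMR1. TPMCa replicate 1 lay within the range of TPM and TPK, and TPMR1 replicate 1 was the lowest. Hbegf had a log2 fold change of 1.34 ± 1.09 in TPM (edgeR adjusted p = 0.489) and 1.44 ± 1.08 in TPK (edgeR adjusted p = 0.401). Egf, the founding ligand of the family, was at 2.35 and 3.32 CPM in TPM, 1.20 and 2.70 CPM in TPK, 3.10 and 2.34 CPM in TPMCa, and 3.83 and 1.95 CPM in TPMR1. The 4 models overlapped, and the log2 fold change of Egf was 0.01 ± 0.60 in TPM and -0.52 ± 0.62 in TPK, with edgeR adjusted p-values of 0.994 and 0.599.

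**Figure D2:**
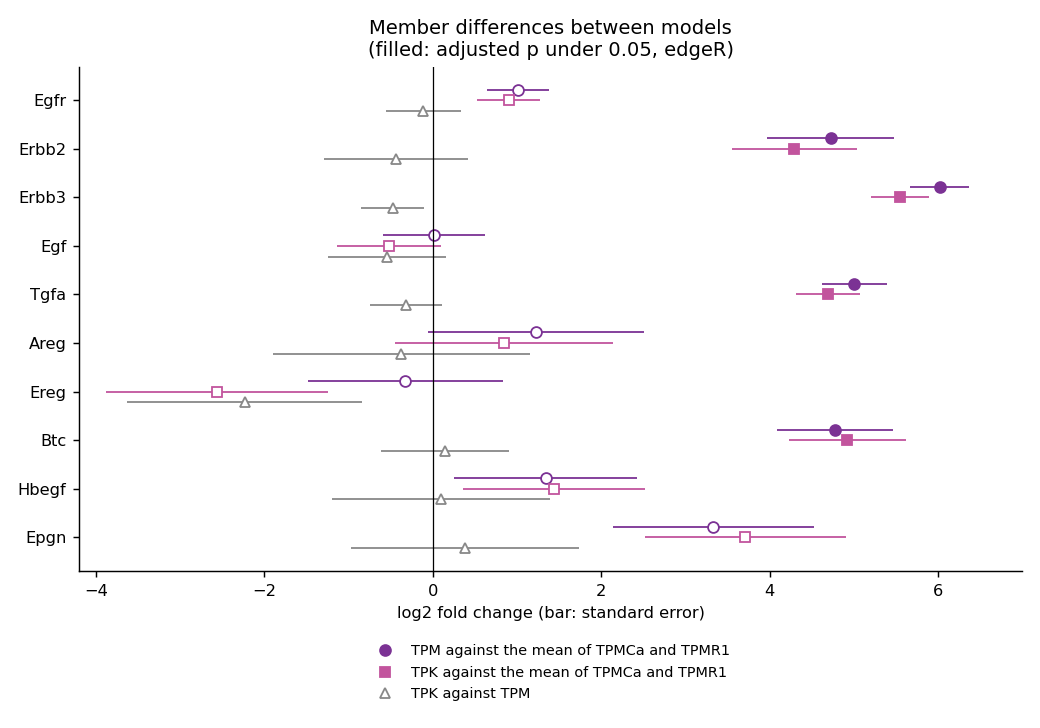
Log2 fold change of each member with its standard error in TPM and in TPK against the mean of TPMCa and TPMR1, and in TPK against TPM, where filled marks have an adjusted p under 0.05 in edgeR. Erbb2, Erbb3, Tgfa and Btc lie between 4.29 and 6.02 in the first 2 comparisons, and every mark of TPK against TPM is open.

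The difference of these genes stood beside that of the epithelial markers. All 6 simple epithelium markers and all 6 squamous epithelium markers (Krt5, Krt14, Krt6a, Trp63, Dsc3 and Col17a1) were higher in TPM and in TPK at an adjusted p under 0.05 in edgeR, with a median log2 fold change of 7.15 and 10.2 in TPM and of 7.70 and 10.7 in TPK. The summed squamous markers ranged from 4186.7 to 16051.5 CPM in TPM, from 12764.4 to 19953.2 CPM in TPK, from 5.68 to 6.33 CPM in TPMCa and from 1.39 to 12.3 CPM in TPMR1, and Krt5 and Krt6a were at 0 in both TPMR1 libraries. The part of epithelial content in the differences of Erbb2, Erbb3, Tgfa and Btc was not tested. A list of 7 genes known from gonadal supporting cells summed to 907 and 432 CPM in TPMR1 and to at most 21.3 CPM elsewhere. Most of this sum came from Nr5a1, at 753 and 148 CPM, and Gata4, at 137 and 183 CPM. Of the others in TPMR1, Fshr and Cyp19a1 were at 0, Amh was at 0.736 and 2.61 CPM, Inha at 15.4 and 64.8 CPM, and Foxl2 at 0.310 and 33.1 CPM. The part of these genes in the results was not tested.

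The next question was whether the family differed between the models without the Pik3ca or Pik3r1 alteration, TPK and TPM. Of these models, only TPM carried the introduced Myc. No member passed an adjusted p under 0.05 in edgeR, and neither did any tested gene (0%), with 1138 genes at an unadjusted p under 0.05 and 245 genes called by DESeq2, none of them a member. At the threshold of the study, 0 of the 10 members and 5.28% of all tested genes differed. The median over the members was -0.35, beside 0.01 over all tested genes. For the receptors, the log2 fold change was -0.11 ± 0.44 for Egfr, -0.43 ± 0.85 for Erbb2 and -0.48 ± 0.38 for Erbb3. The Erbb2, Erbb3 and Ereg levels of both TPK libraries lay below those of both TPM libraries, and the levels of the other members overlapped. With 2 libraries on each side, such a separation is frequent even where nothing differs. For Erbb2 and Erbb3 the edgeR adjusted p-values were 0.944 and 0.812. How many of all tested genes separated TPK from TPM in this way was not counted. Ereg had the largest difference of a member, -2.23 ± 1.40, with an edgeR adjusted p of 0.76.

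TPMR1 and TPMCa were compared to see whether the family differed between the models with a Pik3r1 and a Pik3ca alteration. Again no member and no tested gene (0%) passed an adjusted p under 0.05 in edgeR, with 1867 genes at an unadjusted p under 0.05 and 810 genes called by DESeq2, none of them a member. At the threshold of the study, 0 of the 10 members and 10.5% of all tested genes differed. Log2 fold changes were -3.10 ± 1.42 for Ereg (edgeR adjusted p = 0.451), -2.76 ± 1.65 for Areg (edgeR adjusted p = 0.537), and 0.99 ± 0.46 for Tgfa (edgeR adjusted p = 0.453). Both Tgfa levels of TPMR1 lay above those of TPMCa and both Areg levels lay below, with the Areg level of TPMR1 replicate 1 under the floor. Both Btc levels of TPMR1 also lay below, at 0.116 and 0.333 CPM against 0.443 and 0.390 CPM in TPMCa. These Btc levels are 3 and 6 counts against 7 and 7 counts, at or just above the floor. The levels of the other members overlapped, and how many of all tested genes separated the libraries was not counted. Erbb2 had a log2 fold change of -0.76 ± 0.88, and passed the threshold only without TPMR1 replicate 2, where it was -3.08 with an edgeR adjusted p of 0.0319 from a single TPMR1 library assumed to vary like the other models. In that fit 1379 of 16740 genes were called.

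To set receptors and ligands side by side, levels were divided by the summed exon length of each gene in GENCODE M21. Per length, Erbb2 was the most abundant receptor in every TPM and TPK library, with 56.2 to 65.3% of the summed receptor level. Egfr was the most abundant in every TPMCa and TPMR1 library, with 64.8 to 88.6%. On this scale the share of Egfr was 13.9% ± 3.59 (SD, n = 2) in TPM, 16.9% ± 0.207 in TPK, 66.3% ± 2.14 in TPMCa and 79.7% ± 12.6 in TPMR1. With coding length in place of exon length, the share of Egfr was 25.7% in TPM, 30.5% in TPK and 81.1% in TPMCa. Erbb3 then had 23.1% in TPM and 20.9% in TPK, which put Egfr above Erbb3 in both means, and in every one of the 4 libraries but TPM replicate 2. Erbb2 still led in every TPM and TPK library and Egfr in every TPMCa and TPMR1 library, with the longest transcript as well.

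In absolute terms per length, Egfr was at 9.13 ± 2.54 CPM per kb (SD, n = 2) in TPM, 8.46 ± 1.66 in TPK, 4.55 ± 2.25 in TPMCa and 4.52 ± 1.53 in TPMR1. Erbb2 was at 39.7 ± 3.38 CPM per kb in TPM, 29.4 ± 3.41 in TPK, 1.96 ± 1.05 in TPMCa and 1.16 ± 1.32 in TPMR1. Per exon length, the order of the receptors was Erbb2, Erbb3, Egfr in TPM and TPK, and Egfr, Erbb2, Erbb3 in TPMCa and TPMR1. Erbb3 was at 16.6 ± 2.23 CPM per kb in TPM, 11.97 ± 4.14 in TPK, 0.300 ± 0.126 in TPMCa and 0.217 ± 0.00661 in TPMR1. The mean levels of Erbb2 and Erbb3 in TPMR1 differed by less than the SD of Erbb2, and those of Erbb3 and Egfr in TPK by less than the SD of Erbb3, although Erbb3 over Egfr was 1.24 and 1.55 in the TPK libraries.

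**Figure D3:**
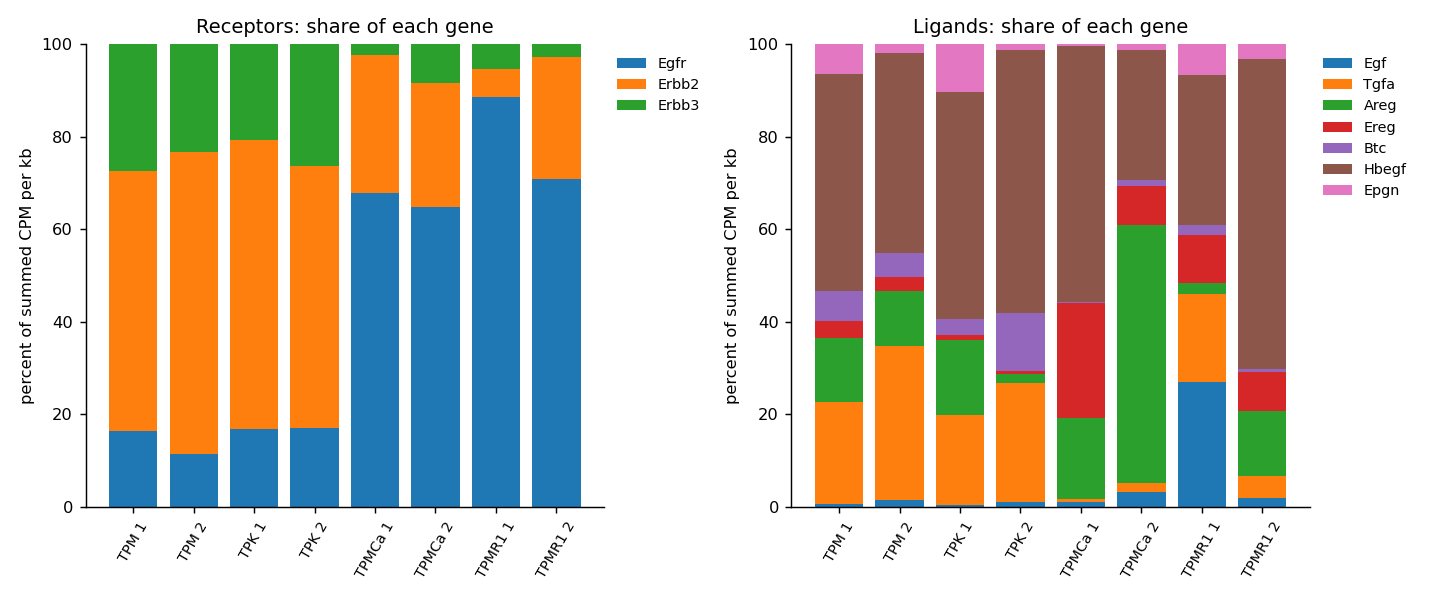
Share of each receptor (left) and each ligand (right) in the summed level per kb of exon of its class, in percent, with 1 bar per library. Erbb2 takes 56.2 to 65.3% of the receptors in TPM and TPK, Egfr takes 64.8 to 88.6% in TPMCa and TPMR1, and Hbegf leads the ligands in all libraries but TPMCa replicate 2.

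Among the ligands, Hbegf was the most abundant per length in 7 of the 8 libraries, with 32.4 to 66.9% of the summed ligand level. The exception was TPMCa replicate 2, in which Areg took 55.8% and Hbegf 28.0%. This ranking depended on the length used. With coding length, Hbegf led in TPMCa replicate 2 with 50.6% against 21.2% for Areg, and Tgfa led in TPM replicate 2 with 47.2% against 40.6% for Hbegf. The longest transcript left Areg ahead in TPMCa replicate 2, at 44.9%, and put Egf, at 38.1%, before Hbegf, at 32.4%, in TPMR1 replicate 1. Per exon length, the ligand in the next place was Tgfa in every TPM and TPK library, with 19.6 to 33.3%. In TPMCa and TPMR1 the next place varied, with Ereg at 24.8% in TPMCa replicate 1, Egf at 27.0% in TPMR1 replicate 1 and Areg at 13.9% in TPMR1 replicate 2. The high share of Egf in TPMR1 replicate 1 stood on a low sum, since the 7 ligands together reached 8.21 CPM there against 19.8 to 189 CPM in the other libraries.

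The ratio of a ligand to Egfr per length separated the models for Tgfa but not for Hbegf. Tgfa over Egfr was 0.854 and 0.906 in TPM, 0.965 and 0.600 in TPK, 0.0350 and 0.0464 in TPMCa, and 0.0695 and 0.0826 in TPMR1. Hbegf over Egfr was 1.81 and 1.18 in TPM, 2.42 and 1.33 in TPK, 2.72 and 0.638 in TPMCa, and 0.119 and 1.14 in TPMR1. All Tgfa ratios of TPM and TPK lay above those of TPMCa and TPMR1, whereas the Hbegf ratios overlapped. The summed ligands over the summed receptors came to 0.634 and 0.309 in TPM, 0.828 and 0.399 in TPK, 3.34 and 1.48 in TPMCa, and 0.326 and 1.21 in TPMR1. All these ratios use exon length, which is 6490 bases for Tgfa and 11326 for Egfr. Coding length is 554 and 3719 bases. Whether ligands lay above or below receptors thus depends on the length used, and the ratios were not computed with other lengths.

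Hbegf, Areg and Ereg moved between replicates in the same direction as neutrophil markers in TPMCa and TPMR1, and in the opposite direction in TPM. In TPK the single markers were split. The summed level of 5 neutrophil markers (S100a8, S100a9, Csf3r, Cxcr2 and Retnlg) was 482 and 871 CPM in TPM, 654 and 710 CPM in TPK, 2187 and 291 CPM in TPMCa, and 14.4 and 527 CPM in TPMR1. TPMCa replicate 1 had the highest sum and the highest Ereg level, and TPMR1 replicate 1 had the lowest sum and the lowest Hbegf and Areg levels. In both TPM and TPK, replicate 2 had the higher sum of the markers and the lower level of Hbegf, Areg and Ereg. The sum rose in TPK through Csf3r and Cxcr2 alone. S100a8 fell there from 212 to 195 CPM, S100a9 from 277 to 248 CPM and Retnlg from 28.1 to 11.6 CPM. TPMR1 replicate 1 was also the lowest library for the summed markers of fibroblasts, at 876 CPM against 2407 to 16595 CPM elsewhere, of smooth muscle, at 34.6 CPM against 107 to 791 CPM, and of macrophages, at 183 CPM against 368 to 3613 CPM. It was lowest as well for simple epithelium (6.47 CPM) and squamous epithelium (1.39 CPM), and highest for the gonadal list (907 CPM). Between replicates, 2701 genes differed more than 4-fold in TPMR1, against 749 in TPM, 972 in TPK and 1293 in TPMCa. Endothelial markers summed to between 91.8 and 109 CPM in TPM, 50.2 and 141 CPM in TPK, 367 and 482 CPM in TPMCa, and 146 and 599 CPM in TPMR1. The part of these cells in the levels of the ligands was not tested.

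**Figure D4:**
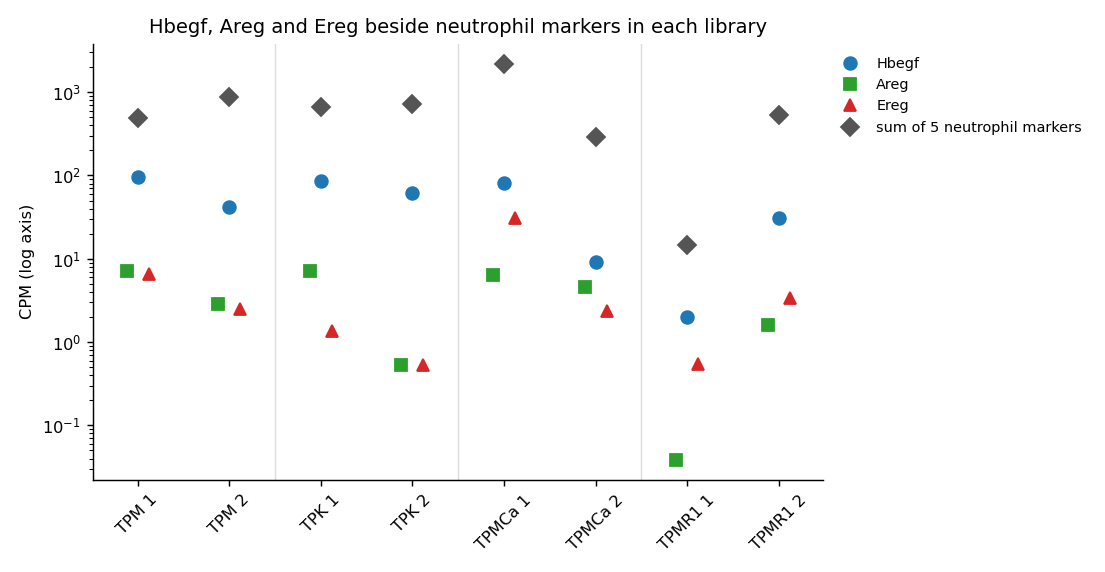
Level of Hbegf, Areg and Ereg and the summed level of 5 neutrophil markers in each library, in CPM on a log axis. In TPMR1 replicate 1 the sum (14.4 CPM), Hbegf (1.97 CPM) and Areg (0.0387 CPM) are at their lowest, and in TPMCa replicate 1 the sum (2187 CPM) and Ereg (30.9 CPM) are at their highest.

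The remaining genes of the pathway were described from 4 lists. The fourth receptor, Erbb4, was at 0 in 6 libraries and held 1 count in TPMCa replicate 1 and 7 counts in TPMR1 replicate 2, so it was not tested. Nrg3 was at 0 in all 8 libraries. Of the 3 neuregulins tested, 0 passed an adjusted p under 0.05 in either comparison with the mean of TPMCa and TPMR1, beside the 7.44% and 10.3% of all tested genes that were higher. Nrg1, a ligand of ERBB3, was at 5.84 and 3.20 CPM in TPM, 8.57 and 2.31 CPM in TPK, 0.760 and 1.45 CPM in TPMCa, and 0.0774 and 0.945 CPM in TPMR1. The TPM and TPK levels of Nrg1 lay above the others, a separation whose share over all tested genes was not counted. Nrg1 had a log2 fold change of 2.59 ± 0.95 in TPM (edgeR adjusted p = 0.155) and 2.86 ± 0.95 in TPK (edgeR adjusted p = 0.0923).

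No gene of ligand release passed the test. The list held 8 genes, among them Adam17, the main sheddase of TGF-alpha, amphiregulin and HB-EGF, Adam10, which sheds EGF and betacellulin, and Rhbdf1 and Rhbdf2, which bring ADAM17 to the surface. In edgeR, 0 of the 8 were higher or lower in TPM or in TPK at an adjusted p under 0.05, a count near the background of 7.44% and 10.3% of all tested genes higher for a list of this size. The level of Adam17 was 112 and 107 CPM in TPM, 102 and 94.3 CPM in TPK, 106 and 116 CPM in TPMCa, and 87.3 and 69.2 CPM in TPMR1, with a log2 fold change of 0.23 ± 0.19 in TPM and 0.08 ± 0.20 in TPK. The median log2 fold change of the list was 0.36 in TPM and 0.24 in TPK.

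Among the 11 adaptors and proximal effectors, TPM had 2 higher and 0 lower genes, and TPK had 2 higher and 1 lower, beside 7.44% higher and 1.45% lower over all tested genes in TPM and 10.3% and 4.06% in TPK. Grb7, an adaptor that binds phosphorylated ERBB2, had the largest difference. Its level was 124 and 142 CPM in TPM and 117 and 117 CPM in TPK, and it held between 1 and 7 counts in each TPMCa and TPMR1 library. Grb7 had a log2 fold change of 9.79 ± 0.32 in TPM (edgeR adjusted p = 0.000271) and 9.61 ± 0.32 in TPK (edgeR adjusted p = 0.000185). Grb7 lies at chr11:98446394-98455373, on the same strand as Erbb2 and beyond its end at 98437716.

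Src, a cytoplasmic kinase that acts with EGFR, was the other adaptor or effector that rose. Its level was 128 and 98.7 CPM in TPM, 108 and 144 CPM in TPK, 24.1 and 16.1 CPM in TPMCa, and 13.1 and 26.1 CPM in TPMR1. Src had a log2 fold change of 2.52 ± 0.34 in TPM (edgeR adjusted p = 0.00748) and 2.67 ± 0.34 in TPK (edgeR adjusted p = 0.005), and the call in TPM was lost without TPM replicate 1 (edgeR adjusted p = 0.0595). Gab2, a docking protein that passes receptor signals to PI3K, was lower in TPK, with a log2 fold change of -1.51 ± 0.39 and an edgeR adjusted p of 0.0483, and this call was lost in 8 of 15 alternatives, which included leaving out any library of TPM, TPK or TPMCa, with edgeR adjusted p-values between 0.0712 and 0.269. The adjusted p of Gab2 in TPM was 0.0537 in edgeR. The general adaptors Grb2 and Shc1 had log2 fold changes of -0.41 ± 0.23 and -0.17 ± 0.25 in TPM and of -0.14 ± 0.23 and -0.03 ± 0.25 in TPK, none of them past the threshold.

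**Figure D5:**
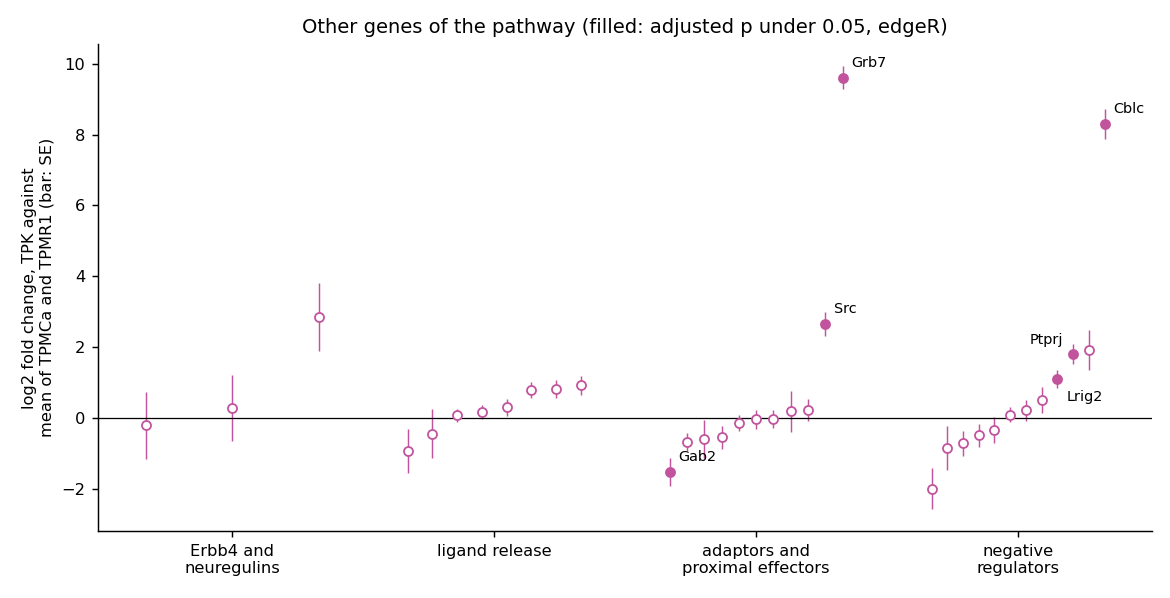
Log2 fold change of each tested gene of the 4 pathway lists in TPK against the mean of TPMCa and TPMR1, with its standard error, where filled marks have an adjusted p under 0.05 in edgeR. Grb7 (9.61) and Cblc (8.30) stand apart, and no gene of the neuregulin or ligand release lists is filled.

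Of the 12 negative regulators, 2 were higher in TPM and 3 in TPK, and 0 were lower in either, beside the same shares over all tested genes (7.44% higher in TPM and 10.3% in TPK). Cblc, an epithelial ubiquitin ligase of the CBL family, was at 89.3 and 49.6 CPM in TPM and 81.7 and 92.5 CPM in TPK, and held between 3 and 8 counts in each TPMCa and TPMR1 library. Cblc had a log2 fold change of 7.97 ± 0.42 in TPM (edgeR adjusted p = 0.000496) and 8.30 ± 0.42 in TPK (edgeR adjusted p = 0.000369). Its relatives Cbl and Cblb did not pass the threshold, with log2 fold changes between -0.70 and -0.20.

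Ptprj, a receptor phosphatase that acts on EGFR, was at 109 and 98.5 CPM in TPM, 108 and 136 CPM in TPK, 56.2 and 71.7 CPM in TPMCa, and 13.6 and 25.0 CPM in TPMR1. Its log2 fold change was 1.56 ± 0.28 in TPM (edgeR adjusted p = 0.0205) and 1.80 ± 0.28 in TPK (edgeR adjusted p = 0.0105). The call of Ptprj in TPM was lost without TPM replicate 1, TPM replicate 2, TPMCa replicate 1 or TPMCa replicate 2, with edgeR adjusted p-values of 0.163, 0.097, 0.0825 and 0.0569, and that in TPK without TPK replicate 2, with an edgeR adjusted p of 0.0931. Both TPMR1 levels of Ptprj lay below both TPMCa levels, with a log2 fold change of -1.73 ± 0.35 (edgeR adjusted p = 0.364). Lrig2 was higher in TPK, by 1.11 ± 0.25 on the log2 scale with an edgeR adjusted p of 0.0307, a call that was lost in 9 of 15 alternatives, which included leaving out any library of TPM, TPK or TPMCa, with edgeR adjusted p-values between 0.0508 and 0.223. Errfi1, the feedback inhibitor that binds the EGFR kinase, was at 117 and 62.1 CPM in TPM, 75.5 and 51.6 CPM in TPK, 367 and 102 CPM in TPMCa, and 301 and 239 CPM in TPMR1. TPM replicate 1 lay above TPMCa replicate 2 in Errfi1, and its log2 fold change was -1.50 ± 0.57 in TPM and -1.99 ± 0.58 in TPK, with edgeR adjusted p-values of 0.166 and 0.0673.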

How the data were processed

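RNA of 8 libraries, 2 for each of 4 models, was analyzed, with model and replicate taken from the sample labels. The column headings call TPM "TPMS". The deposited table gives whole read counts of 24419 gene symbols, which the authors made from reads aligned to mm10 with STAR. The counter and its annotation are not given in the sources used here. A table of the same counts normalized by the authors with DESeq2 was not used.

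Counts were scaled by the TMM method of edgeR 4.0.16. Its filterByExpr function left 15875 genes, and the model was the sole term of a quasi-likelihood fit over the 8 libraries, with Benjamini-Hochberg adjustment over all tested genes. The methods of the study name DESeq2, a log2 fold change of more than 1 in size and a p below 0.05 before adjustment, and counts at that threshold are given too. The fit was tested on simulated data. CPM values are counts over the TMM-scaled library size, and levels per length divide them by the summed exon length of GENCODE M21. Errors of fold changes are standard errors. An exact permutation test with 2 libraries against 2 or 4 cannot give a p below 0.05, so none was used. The replicates of a model came from separate mice as far as the methods tell.

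The members and gene lists were chosen with earlier results of these data known. Named genes are the 10 members, the up to 3 genes with the smallest p of each pathway list among those with an adjusted p under 0.05, and the 5 genes most like Egfr and Areg. Other pathway genes in the text were named after their values were seen. Alternatives were DESeq2 1.42.0, other scalings and filters, a fit of the compared models only, a replicate block, and each library left out. Same-numbered libraries of different models deviated from their means with correlations between -0.069 and -0.008, so the numbers were not used to pair them. R 4.3.3 and limma 3.58.1 were used. Results on some engineered genes are not reported here.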

Additional observations from a re-analysis of the deposited data

How the results depend on the processing

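With DESeq2, 5 members were higher in TPM and 5 in TPK, with Epgn added to the 4 of edgeR, and DESeq2 called 3094 and 4471 genes in all against 1411 and 2287 in edgeR. Erbb3 and Tgfa were called in all 15 alternatives of both comparisons, Erbb2 in 11 of 15 in each, and Btc in 12 and 14 of 15. Leaving out 1 library gave between 2 and 4 members higher in TPM and between 2 and 4 in TPK. The calls over all genes in these fits ranged from 455 (without TPM replicate 1) to 2061 (without TPMR1 replicate 2) in TPM, and from 541 (without TPK replicate 2) to 3108 (without TPMR1 replicate 1) in TPK. The count was 2 without TPM replicate 1, TPMCa replicate 1 or TPMCa replicate 2 in TPM and without TPK replicate 2 in TPK, and Erbb3 and Tgfa were the members that remained. Between TPMR1 and TPMCa, it gave between 0 and 1 members lower, the latter being Erbb2 without TPMR1 replicate 2, where 1379 of 16740 genes were called.

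The numbers of the replicates did not pair the libraries, and a replicate block left 4 members higher in TPM and 4 in TPK, and lowered the calls over all genes from 1411 to 1038 and from 2287 to 1661. The log2 fold change of Egfr between TPMR1 and TPMCa was -0.01 and turned to 0.028 with the replicate block and to 0.042 with library size alone. Leaving out 1 library turned the direction of other members that were not called. In TPM, log2 fold changes ranged from -0.25 to 0.30 for Egf and from -1.18 to 1.09 for Ereg. In TPK, that of Areg ranged from -2.01 to 2.93. In TPK against TPM, they ranged from -0.37 to 0.19 for Egfr, from -3.23 to 0.52 for Areg, from -0.55 to 1.02 for Btc, from -0.38 to 0.80 for Hbegf and from -2.40 to 2.37 for Epgn. In TPMR1 against TPMCa, they ranged from -0.44 to 0.59 for Egfr, from -3.08 to 0.10 for Erbb2, from -0.86 to 0.041 for Erbb3, from -0.48 to 0.49 for Egf, from -4.50 to 0.82 for Hbegf and from -0.42 to 1.38 for Epgn. These fits rest on fewer libraries, and beyond that the cause was not tested.

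Coding length in place of exon length gave a share of Egfr among the receptors of 25.7% in TPM, 30.5% in TPK and 81.1% in TPMCa, and the longest transcript gave 18.0% in TPK. With the longest transcript, Hbegf took 52.2% of the ligands in TPM and 59.96% in TPK. Between TPMR1 and TPMCa, Btc and Epgn had no value in the fit of these models alone, since both were removed by the filter on low counts. The alternatives for the called pathway genes were added after the data were seen. With 2 libraries per model, levels near the floor of 3 counts, such as Btc in TPMCa and TPMR1 and Areg in TPMR1, were not resolved further.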

Other observations

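The genes whose pattern over the 8 libraries was most like that of Egfr, by Pearson's r of log2 CPM among 10419 genes with a mean log2 CPM of at least 3, were Zfp266 (r = 0.978), Fnbp1l (r = 0.963), Cars (r = 0.958), Plekhg1 (r = 0.953) and Thsd4 (r = 0.953). Zfp266 was at 118 and 88.3 CPM in TPM, 81.6 and 108 CPM in TPK, 73.7 and 54.4 CPM in TPMCa, and 50.9 and 70.8 CPM in TPMR1. Its order within each model followed that of Egfr, which a gene chosen for its likeness to Egfr over these libraries tends to do.

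For Areg, the genes most alike among 10420 were Gpr153 (r = 0.951), Rbms1 (r = 0.949), Col27a1 (r = 0.946), Plbd1 (r = 0.933) and Plk3 (r = 0.932). Plk3 was at 148 and 112 CPM in TPM, 72.8 and 31.8 CPM in TPK, 133 and 83.8 CPM in TPMCa, and 12.2 and 78.9 CPM in TPMR1. Its lowest libraries were TPMR1 replicate 1 and TPK replicate 2, as for Areg, which held 1 and 8 counts there. A gene chosen for its likeness to Areg tends to share such low points. Areg was highest in TPK replicate 1, at 7.09 CPM, where Plk3 was lower than in any TPM or TPMCa library. The points share library depth and composition, and these values are a description over 8 libraries.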
